A study of Homo sapiens with 42 samples.

Results

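The proteasome subunit genes are the 39 rows of the deposited gene table whose symbol starts with PSMA, PSMB, PSMC or PSMD followed by a number, out of 26228 gene rows. PSMA and PSMB genes encode the 20S core particle (19 genes), and PSMC and PSMD genes the 19S regulatory particle (20 genes). Of these, 36 reached 1 FPKM in at least 3 libraries and were tested, 17 of 20S and 19 of 19S, among 12816 genes tested in all. FPKM scale a gene's fragments to its transcript length and to the mapped fragments of the library, so levels can be compared between genes.

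Polyadenylated RNA was sequenced from HAP1, an established near-haploid human line from a chronic myeloid leukaemia, in 42 libraries that form 14 groups of 3. The WT line and a line carrying C312S in CDK7, a kinase of the transcription initiation machinery, were each kept for 24 h with DMSO, YKL at 500 nM, YKL at 2 µM, THZ531, THZ1, or a combination labelled with 500 nM or with 2 µM. THZ531 is known to bind CDK12 and CDK13 covalently, THZ1 to bind CDK7 and also those kinases, and C312S removes the cysteine in CDK7 that THZ1 binds. The labels state no dose for THZ531 or THZ1, so these are not compared with each other. The combination label names no compound, and the column names of the table carry the number of THZ531 and the code of the YKL columns. Whether the C312S line is 1 clone, and whether the libraries of a group are separate cultures, is not said in the labels; the p-values then reflect library-to-library spread alone, which may be technical.

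The proteasome degrades proteins tagged with ubiquitin. Its 20S barrel stacks outer rings of alpha subunits, which gate the entrance, on inner rings of beta subunits, of which PSMB5, PSMB6 and PSMB7 carry the proteolytic sites. The 19S cap binds ubiquitin chains, removes them and unfolds the substrate with a ring of ATPases (PSMC genes). When proteasome activity is short, the transcription factor NFE2L1 (NRF1) is known to raise the subunit genes together through antioxidant response elements in their promoters.

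That element's core, TGACNNNGC on either strand, was searched in RefSeq promoter windows (build GRCh38.p14) from 250 bases before to 50 bases after each start. Windows were found for 34 of the 39 genes, and 10 of these genes had a match, in 10 of 41 windows (24.39%), against 13.35% of all 35116 windows of that length. Matches fell in 3 of 20 windows of 20S genes and 7 of 21 of 19S genes. The following stretches, 2 of each particle and each upstream of the start, show what a match looks like; they are written 5′ to 3′ on the gene's strand and the capitals mark the match, which in PSMC5 reads on the opposite strand.
PSMA4 (chr15:78540640-78540688, + strand): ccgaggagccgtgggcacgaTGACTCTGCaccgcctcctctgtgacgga
PSMB3 (chr17:38752617-38752665, + strand): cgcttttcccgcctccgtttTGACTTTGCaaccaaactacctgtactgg
PSMC5 (chr17:63827644-63827692, + strand): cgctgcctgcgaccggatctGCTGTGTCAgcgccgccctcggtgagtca
PSMD12 (chr17:67366714-67366762, - strand): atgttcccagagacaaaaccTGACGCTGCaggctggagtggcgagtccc
These letters do not show binding.

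Libraries differed in more than the subunit genes. Summed FPKM ran from 447938 to 913367 per library, and the C312S DMSO and C312S THZ1 groups stood apart with means of 794374 and 852330, against 455948 to 628311 in the other groups. The level of the ERCC spike-in RNAs over that of the genes, on the log2 scale relative to WT DMSO, was 2.44 higher in WT THZ1, 1.59 in C312S THZ1, 1.37 in C312S DMSO and 1.11 in the WT combination at 2 µM. FPKM cannot tell fewer cells from less RNA per cell, and the changes below are relative to the rest of each library. Each comparison therefore also gets its counts after scaling to the spike-in RNAs or to equal summed FPKM. Either scaling applies the same factor to all genes of a library. The share of all genes called on these scales is not given, so those counts do not set the genes counted apart from other genes. Read depth is unknown. Of 10 blood cell markers, KIT was highest at 0.963 to 1.72 FPKM, followed by CD33 at 0.115 to 1.23 FPKM, CD14 at up to 0.545 FPKM and CD34 at up to 0.398 FPKM. HBG1, HBG2, PTPRC, SPI1, GATA1 and MPO were listed at 0 to 0.211 FPKM, which without read counts does not show lack of expression. VIM was between 211 and 509 FPKM.

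In WT cells with DMSO the subunit genes were among the more abundant messages. The 14 core 20S genes (all but PSMA8 and the inducible catalytic genes) had a median level of 243.8 FPKM, the 17 core 19S genes (all but the assembly chaperones) 110.6 FPKM, and all genes tested 10.3 FPKM. PSMA4, an alpha ring subunit, was the highest of all members at 560.5 ± 62.8 FPKM (SD, n = 3), and PSMA5, another alpha subunit, the lowest of the core 20S genes at 48.8 ± 2.86 FPKM. Within 19S the core genes ran from PSMD11, a lid scaffold subunit, at 55.3 ± 2.57 FPKM to PSMD8, also of the lid, at 210.2 ± 10.5 FPKM.

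The proteolytic subunits were present at nearly equal levels: 248.8 ± 11.4 FPKM for PSMB5, 238.9 ± 22.8 FPKM for PSMB7 and 218 ± 8.11 FPKM for PSMB6, whose ranges touch or overlap with a neighbour in that order. Their interferon-inducible counterparts, which replace them in the immunoproteasome, were far lower. PSMB10 stood at 20.8 ± 1.23 FPKM, PSMB9 at 3.22 ± 0.519 FPKM and PSMB8 at 0.469 ± 0.283 FPKM, an order without overlap between neighbours. PSMA8, the testis form of PSMA7, and PSMB11, the thymus form of the catalytic subunit, were listed at 0 in 41 and 34 of the 42 libraries. PSMD5, a chaperone of 19S assembly, was listed at 0 to 0.252 FPKM in all libraries. UBB, a ubiquitin gene that cells use broadly, was listed equally low in WT DMSO (0.0541 to 0.308 FPKM), so such values may be failed estimates and PSMD5 was not read as silent.

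**Figure D1:**
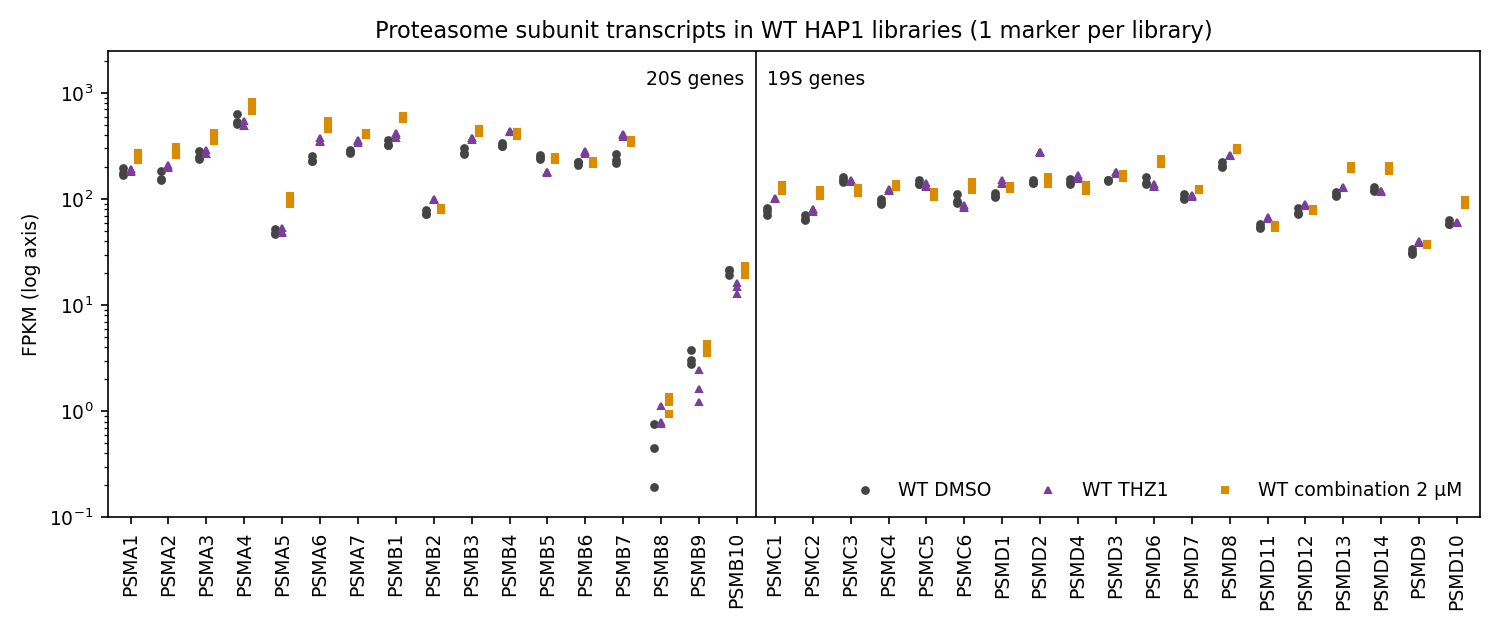
FPKM (log axis) of the 36 tested subunit genes in the 3 libraries each of WT DMSO (circles), WT THZ1 (triangles) and the WT combination at 2 µM (squares), ordered by role, 20S left and 19S right of the line. PSMB8, PSMB9 and PSMB10 lie far below the other 20S genes, PSMD2 is high with THZ1 alone and PSMA5 with the combination alone.

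On the deposited scale, YKL alone lowered more subunit genes than it raised, a balance that turns with equal summed FPKM. At 500 nM, 19 of the 36 tested genes passed the test (limma, adjusted p under 0.05), 6 higher and 13 lower, against 63.0% of all genes tested (31.3% higher, 31.7% lower); their median log2 change was -0.03. At 2 µM it was 16, 2 higher and 14 lower, against 65.3% of all genes (31.8% higher, 33.5% lower), with a median of -0.08. Both shares (19 and 16 of 36) lie below that of all genes. Most members are more abundant than most genes tested, and how far the share called depends on level was not tested, here or below. The medians of 20S and 19S genes were close together, at -0.01 and -0.03 with 500 nM and at -0.08 and -0.07 with 2 µM.

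PSMC6, a subunit of the ATPase ring, fell most. Its levels were 111, 96.5 and 90.9 FPKM in the DMSO libraries, 72.3, 73.5 and 73.7 FPKM with YKL 500 nM and 67.0, 69.3 and 70.2 FPKM with 2 µM. All 6 treated libraries lay below all 3 DMSO libraries, and the log2 changes were -0.43 ± 0.06 (SE, adjusted p = 8.47e-07) and -0.52 ± 0.06 (adjusted p = 2.64e-08).

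PSMA4 fell as well, from 632, 514 and 535 FPKM to 433, 443 and 458 FPKM with 500 nM and 406, 398 and 454 FPKM with 2 µM, again without overlap (log2 changes -0.33 and -0.42, adjusted p = 0.000803 and 4.53e-05). PSMA1, an alpha subunit, changed by -0.30 with 500 nM (adjusted p = 1.29e-05). PSMB6, which carries the caspase-like activity, changed by -0.35 with 2 µM (adjusted p = 1.48e-06). PSMB5, which carries the chymotrypsin-like activity, went from 260, 249 and 237 FPKM to 222, 211 and 203 FPKM with 500 nM and 189, 203 and 193 FPKM with 2 µM, all 6 below the DMSO libraries.

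PSMC4, another ATPase, rose under both doses, from 99.3, 93.7 and 90.2 FPKM to 113, 102 and 107 FPKM (log2 change 0.19, adjusted p = 0.000489) and 102, 111 and 108 FPKM (0.18, adjusted p = 0.000698). PSMB1, a structural beta subunit, and PSMD13, a lid subunit, rose by 0.18 and 0.15 with 500 nM (adjusted p = 0.00661 and 0.0113). PSMB9 was 3.04, 2.82 and 3.81 FPKM with DMSO and 3.84, 4.56 and 5.90 FPKM with 500 nM, a called rise (0.44, adjusted p = 0.00753), and 2.92, 3.58 and 3.10 FPKM with 2 µM, which overlapped DMSO.

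These splits depend on the scale. Scaled to the spike-in RNAs, 0 members were higher and 34 lower with 500 nM and 1 higher and 14 lower with 2 µM. Scaled to equal summed FPKM, 22 were higher and 1 lower at each dose, and the median of all genes moved to 0.20 and 0.25. Median-ratio scaling gave 9 higher and 11 lower, and 4 higher and 12 lower. With the trends on transcript length and GC content removed, 4 were higher and 15 lower at 2 µM.

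Between the doses the subunit genes could hardly be told apart. YKL 2 µM against 500 nM gave 1 called member of 36 (6.18% of all genes, 4.04% lower), PSMD11, which was lower at 44.7 against 48.1 FPKM (log2 change -0.10 ± 0.03, adjusted p = 0.0394). Leaving out YKL 500 nM replicate 2 or YKL 2 µM replicate 1 left 0 calls and leaving out YKL 500 nM replicate 3 gave 2. The 95% intervals of the other members lay within -0.73 to 0.27, the lowest bound being that of PSMB9. Scaled to the spike-in RNAs 34 were higher and 0 lower with 2 µM, with all genes at a median of 0.47.

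THZ531 moved subunit genes in both directions. In WT cells 18 of 36 passed the test, 10 higher and 8 lower, close to the 46.9% of all genes (24.0% higher, 22.9% lower), with medians of 0.07 for 20S and 0.08 for 19S. The spike-in scale gave 7 higher and 4 lower, equal summed FPKM 23 and 6, and removal of the length and GC trends 18 and 6.

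PSMC1, an ATPase, rose from 81.6, 76.8 and 71.0 FPKM to 91.6, 98.9 and 99.9 FPKM (log2 change 0.34 ± 0.06, adjusted p = 1.53e-05). PSMA6 and PSMA1, both of the alpha ring, rose by 0.28 and 0.27 (adjusted p = 0.000406 and 0.000133). In each of these genes the THZ531 libraries lay above the DMSO libraries.

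PSMC3, also an ATPase, fell from 162, 152 and 146 FPKM to 118, 117 and 118 FPKM (-0.38 ± 0.05, adjusted p = 3.52e-07). PSMB10 fell from 19.4, 21.4 and 21.6 FPKM to 14.3, 13.2 and 14.4 FPKM (-0.54 ± 0.10, adjusted p = 6.75e-05), and PSMB9 from 3.04, 2.82 and 3.81 FPKM to 1.66, 1.64 and 2.10 FPKM (-0.59, adjusted p = 0.00111). PSMB4, a structural beta subunit, changed by -0.33 (adjusted p = 1.35e-05). The ranges did not overlap in any of these.

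The order of the THZ531 changes followed base composition and, less closely, transcript length. Across the 36 genes the log2 change ran against the GC content of the transcript with a Spearman rho of -0.66, and across 12555 genes with -0.47. With transcript length the rho was 0.43 across the 36 genes and 0.25 across the 12555. These are descriptions over genes measured in the same libraries. The 4 members named as falling have transcripts of 51.8 to 60.1% GC, and the 3 named as rising of 44.5 to 48.7%.

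**Figure D2:**
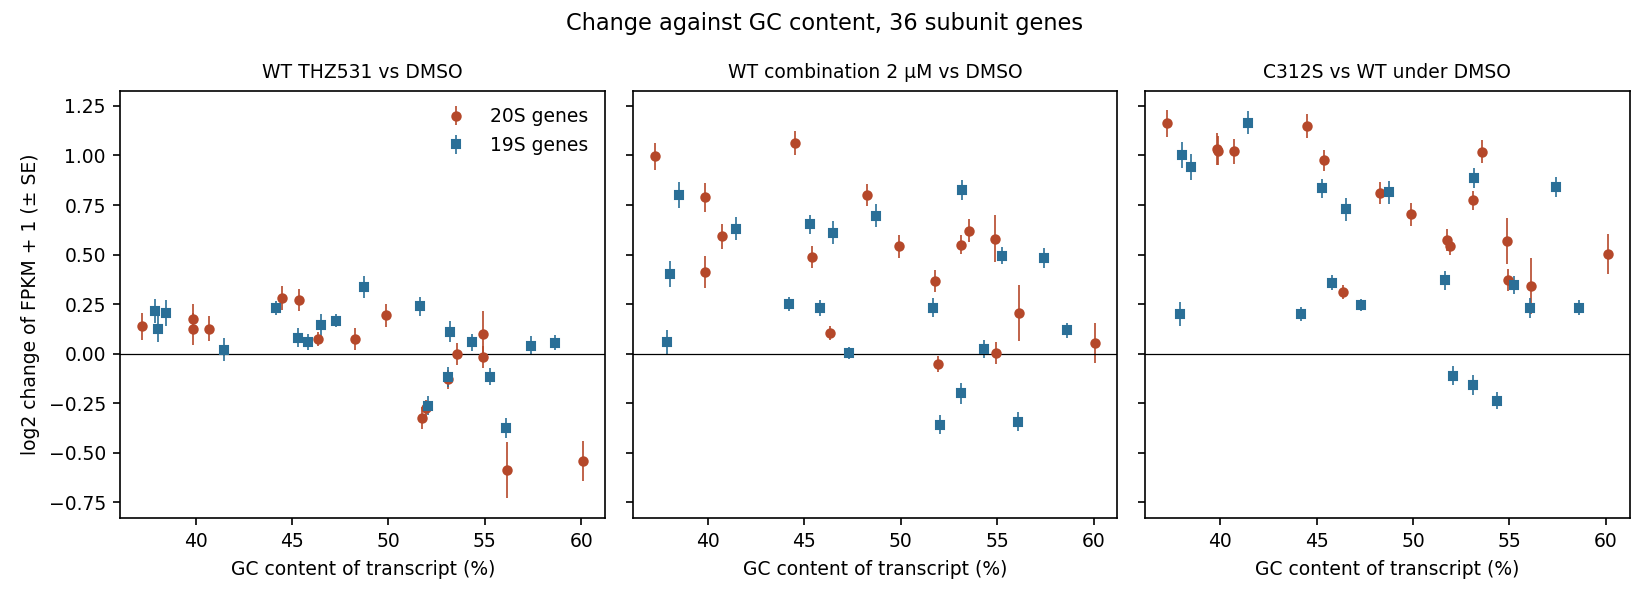
Log2 change of FPKM + 1 (± SE) of each of the 36 subunit genes against the GC content of its transcript (%), 20S as circles and 19S as squares, for 3 comparisons. The THZ531 changes slope down with GC (rho -0.66), and the slope is looser for the combination at 2 µM (-0.41) and for C312S against WT under DMSO (-0.47).

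THZ1 raised most subunit genes of WT cells relative to the rest of the transcriptome, though not relative to the spike-in RNAs. Of 36 members 27 passed the test, 22 higher and 5 lower, against 68.8% of all genes, which split 34.0% higher and 34.8% lower. The median change was 0.31 for 20S and 0.20 for 19S, against -0.01 for all genes. All 4 structural beta genes and all 3 non-ATPase base genes rose, while of the alpha ring 3 of 7 did.

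The largest rise was that of PSMD2, a scaffold of the 19S base that receives ubiquitin shuttle proteins. It went from 151, 143 and 142 FPKM with DMSO to 270, 275 and 275 FPKM, a log2 change of 0.91 ± 0.04 (adjusted p = 1.51e-17), and no other WT treatment passed 166 FPKM. PSMB7, which carries the trypsin-like activity, went from 264, 219 and 234 FPKM to 385, 406 and 410 FPKM (0.75 ± 0.06, adjusted p = 7.88e-13). PSMA6 went from 257, 226 and 231 FPKM to 352, 344 and 379 FPKM (0.59, adjusted p = 6.23e-10).

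The proteolytic genes did not move together. PSMB6 rose from 223, 222 and 209 FPKM to 282, 265 and 277 FPKM (0.33, adjusted p = 2.93e-06), while PSMB5 fell from 260, 249 and 237 FPKM to 179, 175 and 180 FPKM (-0.48 ± 0.04, adjusted p = 9.09e-12). PSMB10 fell to 16.1, 14.9 and 12.6 FPKM (-0.49, adjusted p = 8.06e-05) and PSMB9 to 2.43, 1.64 and 1.23 FPKM (-0.63, adjusted p = 0.000246). Each of these changes separated the THZ1 from the DMSO libraries. PSMB8 was 0.759, 0.193 and 0.454 FPKM with DMSO and 0.791, 0.757 and 1.13 FPKM with THZ1, which overlapped, and the rise was called (0.38, adjusted p = 0.00519) but rests on levels near 0 and was not called without WT DMSO replicate 2 (0.24, adjusted p = 0.0828).

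In 19S, PSMC6 fell by 0.23 on the log2 scale (adjusted p = 0.00203). PSMD4, a ubiquitin receptor, was 156, 146 and 139 FPKM with DMSO and 168, 156 and 161 FPKM with THZ1; its ranges overlapped narrowly and its rise was small (0.14, adjusted p = 0.0185). PSMD14, the deubiquitinase of the lid, was 131, 119 and 121 FPKM with DMSO and 118, 117 and 118 FPKM with THZ1 and was not called.

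Relative to the spike-in RNAs 0 members were higher and 36 lower with THZ1, so each of the rises above was a fall on that scale. The median was -2.15, against -1.99 for all genes. The pseudocount of 1 was added after scaling and shrinks the falls of low genes more. The medians therefore do not show that members fell more than other genes. With equal summed FPKM the split was 17 higher and 13 lower.

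The combination labelled 500 nM raised 18 and lowered 7 of 36 members (25 called, against 68.2% of all genes, 34.0% higher and 34.2% lower), with medians of 0.13 for 20S and 0.09 for 19S. PSMA6 rose from 257, 226 and 231 FPKM to 327, 361 and 334 FPKM (0.52 ± 0.06, adjusted p = 1.1e-08), PSMA5 by 0.43 (adjusted p = 2.07e-06) and PSMB1 by 0.40 (adjusted p = 1.9e-07). PSMC5, an ATPase, fell from 153, 139 and 138 FPKM to 109, 121 and 108 FPKM (-0.35 ± 0.05, adjusted p = 1.68e-07), PSMC3 by 0.34 (adjusted p = 5.14e-07) and PSMB5 by 0.30 (adjusted p = 1.36e-07). The spike-in scale gave 1 higher and 21 lower, equal summed FPKM 29 and 3, and removal of the length and GC trends 16 and 11.

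With the combination labelled 2 µM more members rose on the deposited scale, while on the spike-in scale 33 of 36 were lower. Of 36 members 29 passed the test, 26 higher and 3 lower, against 77.1% of all genes (38.9% higher, 38.1% lower). Among 20S genes 13 of 17 rose and 0 fell, with a median of 0.54, and among 19S genes 13 of 19 rose and 3 fell, with a median of 0.25. All 7 tested alpha ring genes and all 4 structural beta genes rose, 6 of 8 lid genes rose, and of the proteolytic genes 1 of 3 rose.

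PSMA6 went from 257, 226 and 231 FPKM to 462, 547 and 489 FPKM (1.06 ± 0.06, adjusted p = 3.51e-16). PSMA5 went from 52.1, 46.7 and 47.8 FPKM to 90.8, 108 and 97.5 FPKM (1.00 ± 0.07, adjusted p = 2.1e-14). PSMD13 went from 117, 108 and 106 FPKM to 193, 206 and 192 FPKM (0.83 ± 0.05, adjusted p = 2.35e-15). In these genes every treated library lay far above the DMSO range, and PSMD14 did likewise at 185, 205 and 196 FPKM (0.65, adjusted p = 9.68e-14).

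The called falls were all in 19S genes. PSMC5 was 117, 112 and 106 FPKM (-0.36 ± 0.05, adjusted p = 6.67e-08) and PSMC3 128, 121 and 114 FPKM (-0.34 ± 0.05, adjusted p = 2.83e-07), all below their DMSO libraries. PSMD4 was 136, 129 and 119 FPKM (-0.20, adjusted p = 0.000789). The proteolytic PSMB7 rose to 345, 359 and 337 FPKM (0.54, adjusted p = 6.18e-10), while PSMB5 at 247, 240 and 233 FPKM and PSMB6 at 226, 213 and 216 FPKM overlapped DMSO and were not called.

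Relative to the spike-in RNAs 0 members were higher and 33 lower with this combination (median -0.66 against -0.93 for all genes). On that scale PSMD13 was lower (-0.29, adjusted p = 0.00501), while PSMA6 (-0.056, adjusted p = 0.573) and PSMA5 (-0.11, adjusted p = 0.271) were not called. Equal summed FPKM gave 24 higher and 4 lower. With the length and GC trends removed 22 were higher and 11 lower.

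Against THZ531 alone, the 2 µM combination raised 25 of 36 members and lowered 2 (27 called, against 73.5% of all genes, 38.3% higher and 35.3% lower), a comparison that rests on reading the combination as THZ531 with YKL. The median change was 0.60 for 20S and 0.17 for 19S. PSMA5 rose by 0.86 (adjusted p = 9.78e-13), PSMA6 by 0.78 (adjusted p = 7.98e-13) and PSMB1 by 0.73 (adjusted p = 3.76e-13), while PSMD11 and PSMD12, both of the lid, fell by 0.16 each (adjusted p = 2.36e-05 and 0.0215). The spike-in scale gave 0 higher and 34 lower, equal summed FPKM 24 and 9, and trend removal 18 and 15.

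**Figure D3:**
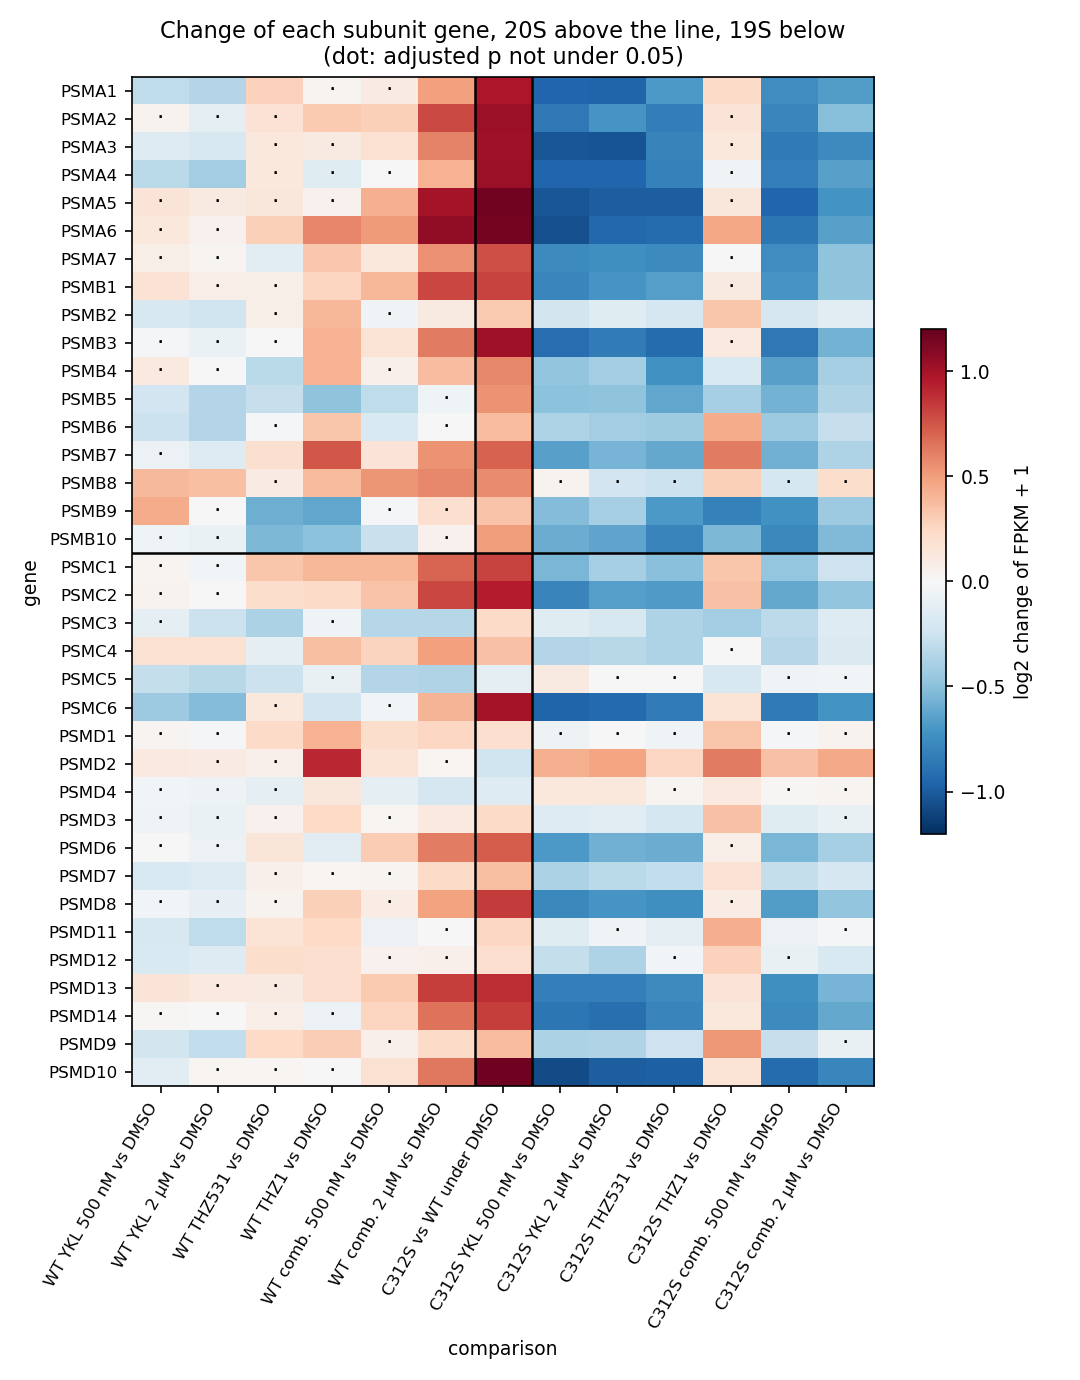
Log2 change of FPKM + 1 of each tested subunit gene (rows, 20S above and 19S below the line) in each treatment against DMSO of the same line and in C312S against WT under DMSO (columns); a dot marks an adjusted p of 0.05 or more. The column of C312S against WT is almost all red and most columns of C312S treatments almost all blue, and PSMD2, PSMD4 and PSMC5 run against their neighbours. On the spike-in scale most members of the column of C312S against WT and of those 5 treatments turn direction.

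C312S cells with DMSO had higher levels of nearly every subunit gene than WT cells with DMSO on the deposited scale, and lower levels on the spike-in scale. All 36 tested members passed the test, 33 higher and 3 lower, against 79.2% of all genes (41.3% higher, 37.9% lower). All 17 tested 20S genes were higher, with a median of 0.78, and 16 of 19 19S genes, with a median of 0.36. The alpha ring had the highest median of the roles with at least 3 tested genes, 1.02. The comparison rests on the C312S DMSO libraries, which stand apart in summed FPKM and in the spike-in level as given above; the part of this in the result was not tested.

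PSMD10, a 19S assembly chaperone also known as gankyrin, was 64.0, 58.8 and 58.5 FPKM in WT and 141, 132 and 136 FPKM in C312S (1.16 ± 0.06, adjusted p = 2.45e-17). PSMA5 and PSMA6 were higher by 1.16 and 1.15 (adjusted p = 8.07e-16 and 1.2e-16). PSMA6 was 576, 509 and 501 FPKM in C312S, above all WT DMSO libraries by a wide gap.

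The genes that were lower in C312S were PSMD2, at 122, 127 and 121 FPKM against 151, 143 and 142 FPKM (-0.24, adjusted p = 1.78e-05), PSMD4 (-0.16, adjusted p = 0.006) and PSMC5 (-0.11, adjusted p = 0.0375). On the spike-in scale 0 members were higher and 35 lower, with all genes at a median of -1.12, and with equal summed FPKM 19 were higher and 13 lower, with all genes at -0.36. With the length and GC trends removed 29 were higher and 4 lower, and PSMD2 was higher (0.08).

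Between the lines under THZ531, where neither group stands apart in summed FPKM, 6 of 36 members were called, all higher in C312S, against 30.4% of all genes. Over all genes 2176 of 12816 were higher, a share close to that of the members. This comparison was chosen after the C312S DMSO libraries had been seen to stand apart. PSMC3 was 136, 140 and 143 FPKM against 118, 117 and 118 FPKM in WT (0.24, adjusted p = 0.00036), PSMB5 was higher by 0.20 (adjusted p = 0.000492) and PSMB4 by 0.17 (adjusted p = 0.0173). PSMA6 was 271, 273 and 291 FPKM against 273, 298 and 297 FPKM, and PSMD10 65.4, 70.4 and 70.8 FPKM against 60.4, 60.9 and 62.4 FPKM (0.17, adjusted p = 0.0295). PSMC5 and PSMA7, an alpha subunit, were the other called members, higher by 0.15 and 0.14 (adjusted p = 0.02 and 0.0232). Leaving out WT THZ531 replicate 1, C312S THZ531 replicate 2 or C312S THZ531 replicate 3 left 3 calls. The spike-in scale gave 4 higher and 0 lower, median-ratio scaling 6 and 2, equal summed FPKM 2 and 11, and trend removal 3 and 5.

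Within C312S, 5 of the 6 treatments lowered most subunit genes against C312S DMSO on the deposited scale and raised most on the spike-in scale. With YKL 500 nM 34 of 36 were called, 3 higher and 31 lower, against 76.4% of all genes (36.9% higher, 39.6% lower). It was 32 (2 and 30) with YKL 2 µM, against 75.8% (36.6% and 39.2%), and 31 (1 and 30) with THZ531, against 74.1% (34.6% and 39.5%). It was 31 (1 and 30) with the combination at 500 nM, against 73.4% (35.0% and 38.4%), and 29 (1 and 28) at 2 µM, against 68.7% (32.8% and 35.9%). These comparisons share the C312S DMSO libraries. The medians ran from -0.77 to -0.49 for 20S genes and from -0.38 to -0.18 for 19S genes.

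PSMA5, at 119, 106 and 106 FPKM in C312S DMSO, was 50.9, 53.0 and 56.8 FPKM with YKL 500 nM, 56.9, 55.5 and 52.6 FPKM with YKL 2 µM and 55.1, 52.3 and 57.8 FPKM with THZ531. These values are near the 46.7 to 52.1 FPKM of WT DMSO. Its log2 changes were -1.03, -0.99 and -0.99 (adjusted p = 1.4e-14, 3.61e-14 and 5.44e-14), and PSMD10 changed by -1.07, -0.99 and -0.98.

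PSMD2 rose in all 5 of these treatments, by 0.25 with THZ531 (adjusted p = 1.14e-05) to 0.48 with YKL 2 µM (adjusted p = 3.84e-11), from 122, 127 and 121 FPKM to 176, 174 and 166 FPKM in the latter; with the trends removed the THZ531 value was -0.013. PSMD4 rose by 0.12 with YKL 500 nM (adjusted p = 0.0315) and 0.13 with 2 µM (adjusted p = 0.0272), and PSMC5 by 0.11 with YKL 500 nM (adjusted p = 0.0361).

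On the spike-in scale 31, 36, 36, 35 and 28 members were higher and 0 lower in the 5 treatments. The spike-in level, as log2 relative to WT DMSO, was 1.37 in C312S DMSO. It was 0.28, 0.16, -0.18, 0.19 and 0.59 in these treatments. All genes of a library move with that level, so the counts do not set the members apart. With equal summed FPKM the splits were 14 higher and 17 lower with YKL 500 nM, 13 and 15 with YKL 2 µM, 12 and 21 with THZ531, 12 and 17 with the combination at 500 nM and 15 and 10 at 2 µM. With the trends removed they were 6 and 25, 5 and 22, 5 and 24, 6 and 24, and 7 and 22.

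THZ1 differed. In C312S 26 of 36 members were called, 20 higher and 6 lower, against 63.6% of all genes (33.9% higher, 29.7% lower), with medians of 0.12 for 20S and 0.16 for 19S. PSMB7 rose from 396, 376 and 394 FPKM to 576, 569 and 662 FPKM (0.63 ± 0.06, adjusted p = 6.74e-11), PSMD2 from 122, 127 and 121 FPKM to 190, 184 and 196 FPKM (0.62 ± 0.04, adjusted p = 2.45e-13), and PSMD9, a 19S assembly chaperone, by 0.52 (adjusted p = 7.2e-11). PSMB10 (-0.54, adjusted p = 2.71e-05), PSMC3 (-0.42, adjusted p = 1.43e-08) and PSMB5 (-0.40, adjusted p = 8.28e-10) fell. The spike-in scale gave 4 higher and 6 lower, and equal summed FPKM 14 and 8. On the deposited scale C312S THZ1 held the highest group mean of all 14 groups for 25 of the 36 tested members, and C312S DMSO for 6. These are also the groups with the highest summed FPKM (852330 and 794374). The same count over all genes was not made, so it is not read as a trait of the members.

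The 2 µM combination against THZ531 within C312S uses neither group that stands apart. It raised 26 of 36 members and lowered 0, against 34.8% of all genes (18.5% higher), with a median of 0.26 for 20S and 0.18 for 19S. PSMB3 and PSMB4, structural beta subunits, rose by 0.35 and 0.33 (adjusted p = 1.86e-05 and 2.1e-05), and PSMA2 of the alpha ring by 0.33 (adjusted p = 0.000987). PSMB4 went from 285, 296 and 294 FPKM to values with a mean of 367.7 FPKM. The split was 0 higher and 35 lower on the spike-in scale, 20 and 1 with equal summed FPKM, and 20 and 5 with the trends removed.

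How the lines differed in each treatment's effect was tested with an interaction term, in comparisons that all but 1 share the DMSO libraries of both lines. The effect of YKL differed for 27 members at 500 nM (73.7% of all genes) and 29 at 2 µM (71.8%), that of THZ531 for 31 (68.0%), and those of the combinations for 32 (74.5%) and 35 (78.7%). On the deposited scale 25, 25, 29, 30 and 31 of these were lower in C312S, against 39.0%, 37.4%, 35.3%, 39.3% and 41.1% of all genes. For THZ1 it was 14 (42.2%), 7 in each direction (22.4% higher and 19.8% lower of all genes). For adding YKL 2 µM to THZ531, which uses no DMSO library, it was 22 (53.1%), 4 higher and 18 lower in C312S (25.9% and 27.2% of all genes). There, PSMA5 (-0.58, adjusted p = 7.66e-06), PSMB1 (-0.56, adjusted p = 5.93e-07) and PSMD13 (-0.51, adjusted p = 7.74e-07) rose less in C312S than in WT, and PSMD11 (0.25, adjusted p = 1.56e-05) and PSMD2 (0.25, adjusted p = 0.00151) moved the other way. For the named genes of that comparison the spike-in scale gave -0.17 for PSMA5, -0.14 for PSMB1 and -0.099 for PSMD13, none called (adjusted p = 0.297, 0.356 and 0.558), and 0.66 for both PSMD11 and PSMD2. Over the members, the spike-in counts were 36, 34, 35, 36, 33 and 34 higher and 0 lower in C312S for YKL 500 nM, YKL 2 µM, THZ531, THZ1 and the combinations, and 13 higher and 0 lower for adding YKL. These counts, too, move with all genes of a library and do not set the members apart. With equal summed FPKM the splits were 9 and 21, 9 and 22, 9 and 18, 12 and 7, 8 and 21, 12 and 20, and 9 and 16, and with trend removal 10 and 18, 10 and 17, 3 and 26, 10 and 8, 6 and 22, 7 and 20, and 13 and 10.

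The balance of the particles can be read within a library, where scaling cancels. The ratio of the median FPKM of the 14 core 20S genes to that of the 17 core 19S genes was 2.198 ± 0.048 (SD, n = 3) in WT DMSO. It was 1.95 ± 0.041 with YKL 500 nM and 1.93 ± 0.072 with 2 µM, where all 6 libraries lay below the DMSO range of 2.14 to 2.23. The median changes of the core genes do not show this fall to the same extent: that of 20S minus that of 19S was -0.0077 with 500 nM and -0.058 with 2 µM, so the ratio rests on the genes in the middle of each particle's order. THZ531 gave 2.16 ± 0.056, overlapping DMSO.

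It was 2.45 ± 0.082 with THZ1, 2.30 ± 0.036 with the combination at 500 nM and 2.85 ± 0.094 with that at 2 µM, each above all DMSO libraries. In C312S the ratio was 3.24 ± 0.033 with DMSO and 2.74 ± 0.095 with THZ1, and between 2.13 and 2.32 in the other 5 groups. The C312S DMSO libraries, at 3.203 to 3.269, lay above every other library of the study.

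**Figure D4:**
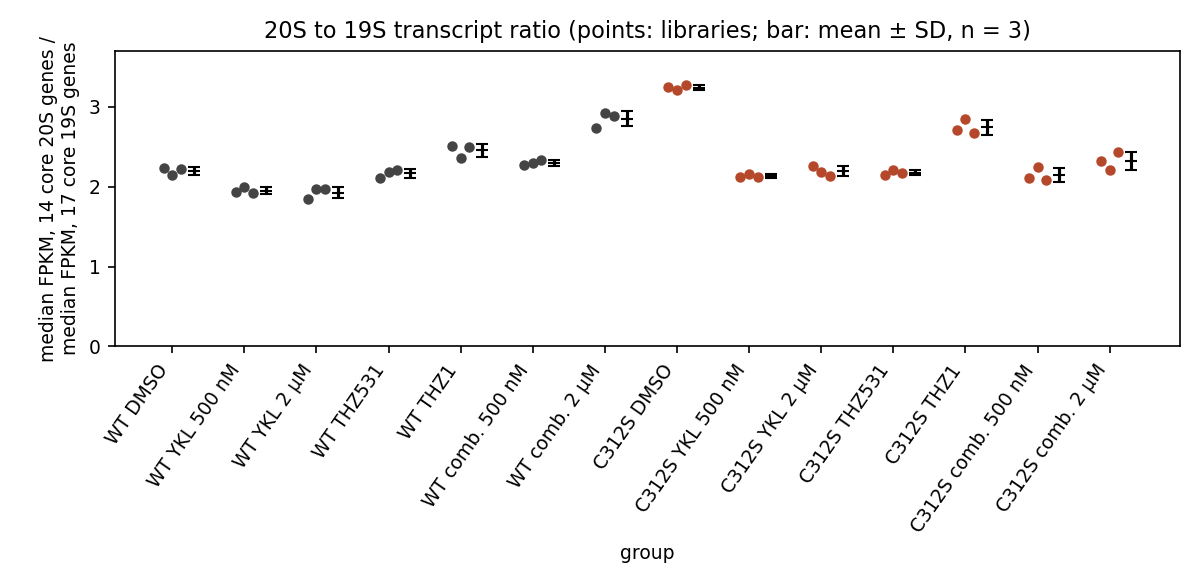
Ratio of the median FPKM of 14 core 20S genes to that of 17 core 19S genes in each library (points, WT dark and C312S red) with the group mean ± SD (n = 3), over the 14 groups. C312S DMSO is highest at 3.24, followed by the WT combination at 2 µM at 2.85 and C312S THZ1 at 2.74.

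The particles also differ in transcript size. The median transcript length was 1012.5 bases for core 20S genes, 1954 bases for core 19S genes and 2741 bases for all genes tested, and the median GC content was 47.3% and 48.7% for the particles. In C312S against WT under DMSO the change ran against length with rho -0.27 and against GC with rho -0.47 across the members, and with -0.29 and -0.55 across 12555 genes.

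After trends on length and GC were removed from all genes, the median 20S change minus the median 19S change in C312S against WT under DMSO went from 0.42 to 0.035. In the WT combination at 2 µM it went from 0.29 to -0.015 and in C312S THZ531 from -0.36 to 0.010. In WT THZ1 it was 0.11 before and 0.10 after, though 0.047 without WT DMSO replicate 2. In the other C312S treatments the value after removal was between -0.11 and -0.0085.

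**Figure D5:**
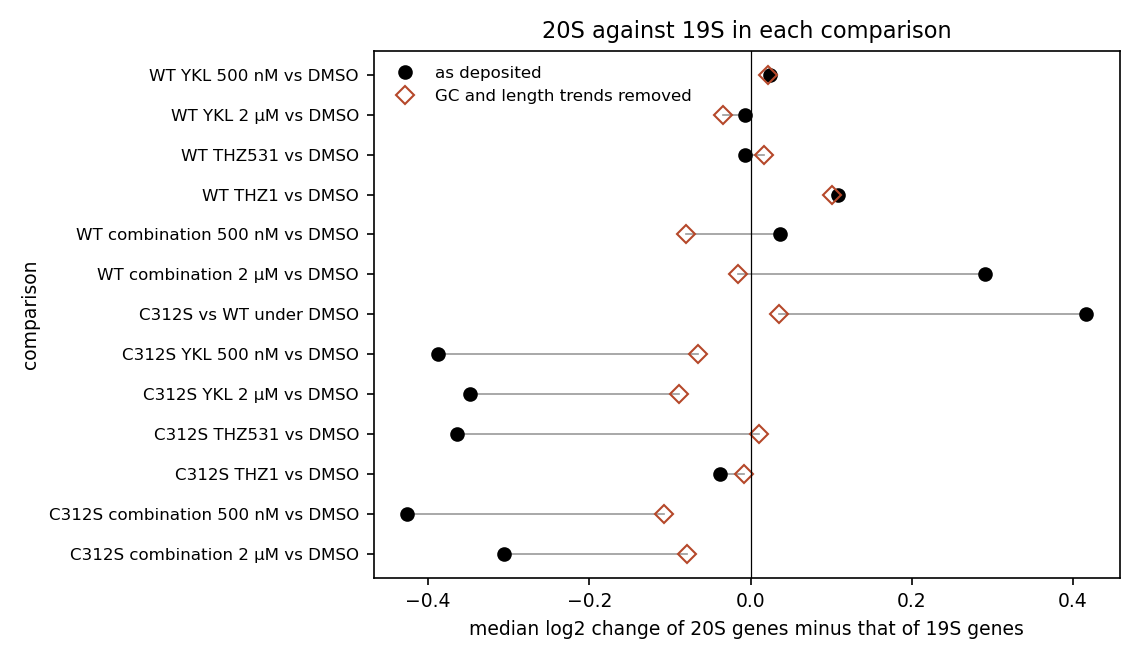
Median log2 change of the 20S genes minus that of the 19S genes in 13 comparisons, as deposited (filled circles) and with trends on GC content and length removed (open diamonds). The values of C312S against WT under DMSO (0.42) and of the WT combination at 2 µM (0.29) move close to 0, and that of WT THZ1 (0.11) hardly moves.

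Across the 14 group means, subunit genes of the core 20S varied together with a median pairwise Pearson r of 0.82 (91 pairs), those of the core 19S with 0.57 (136 pairs), and pairs across the particles with 0.74 (238 pairs). The points share libraries and the 2 groups that stand apart, so these are descriptions. Several 19S genes followed the median of the core 20S genes closely, PSMD8 with r of 0.99 and PSMC2, an ATPase, with 0.96. Others did not: PSMD4 (-0.23), PSMC5 (-0.13), PSMD2 (0.05) and PSMC3 (0.16). PSMD4 had the narrowest range of all tested members, 128.0 to 161.9 FPKM over the group means, a 1.26-fold span, against 3.25-fold for PSMC6.

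Other genes of the proteasome pathway were taken from a list of 39 non-members, 38 of them tested: activators, an inhibitor, assembly chaperones, other 19S-associated proteins, NFE2L1 and its processing, shuttle factors, ubiquitin genes and their E1 enzymes, and cofactors of the unfoldase VCP. With THZ1 in WT 20 rose and 14 fell, with a median of 0.11, against 34.0% higher and 34.8% lower of all genes. The spike-in scale gave 0 higher and 38 lower, and equal summed FPKM 9 and 17. ADRM1, a ubiquitin receptor that docks on PSMD2, went from 121, 123 and 118 FPKM to 228, 226 and 212 FPKM (0.87 ± 0.08, adjusted p = 3.86e-11), and SHFM1, the small lid subunit now called SEM1, rose by 0.60 (adjusted p = 5.34e-09). PAAF1, a chaperone of the ATPase ring, fell from 19.7, 19.9 and 17.8 FPKM to 10.5, 10.7 and 11.2 FPKM (-0.77, adjusted p = 2.05e-12). ADRM1 and SHFM1 were lower on the spike-in scale (-1.54 and -1.83).

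Of the chaperones of 20S assembly 0 of 5 rose and 3 fell with THZ1, and 4 of 5 rose and 0 fell with the 2 µM combination, while on the spike-in scale all 5 were lower in both. POMP, which carries the beta ring through its maturation, went from 152, 131 and 129 FPKM to 214, 249 and 230 FPKM with the combination (0.75, adjusted p = 5.97e-10). POMP was lower on the spike-in scale (-0.37, adjusted p = 0.0024). Over the list, 19 rose and 13 fell in that comparison, against 38.9% higher and 38.1% lower of all genes, with 0 higher and 38 lower on the spike-in scale and 18 and 14 with equal summed FPKM.

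The NFE2L1 protein and its activity were not measured. Its transcript was not raised in any WT treatment on the deposited scale, the spike-in scale or that of equal summed FPKM. It was 47.9, 48.2 and 49.5 FPKM with DMSO, 39.8, 38.8 and 39.0 FPKM with YKL 500 nM (-0.30, adjusted p = 1.08e-06), 45.3, 46.2 and 43.0 FPKM with THZ1 (-0.11, adjusted p = 0.0311) and 31.9, 27.1 and 28.7 FPKM with the 2 µM combination (-0.72 ± 0.05, adjusted p = 4.21e-15). With YKL alone 7 pathway genes rose and 14 fell at 500 nM, against 31.3% and 31.7% of all genes, and 7 and 13 at 2 µM, against 31.8% and 33.5%. With THZ531 it was 10 and 6, against 24.0% and 22.9%, and with the combination at 500 nM 15 and 14, against 34.0% and 34.2%. In these 4 comparisons the spike-in scale gave 0 higher and 37 lower, 1 and 12, 3 and 2, and 0 and 27, and equal summed FPKM 22 and 5, 25 and 6, 18 and 4, and 21 and 5. In C312S, NFE2L1 was higher than with DMSO in every treatment but THZ1. It was 29.9, 31.6 and 30.6 FPKM with DMSO and 45.3, 45.8 and 44.6 FPKM with THZ531. The log2 changes outside THZ1 ran from 1.16 to 2.12 on the spike-in scale and from 0.77 to 1.12 with equal summed FPKM. With THZ1 they were -0.22 and -0.10, neither called. These comparisons share the C312S DMSO libraries, which stand apart in summed FPKM and spike-in level.

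Between the lines under DMSO 20 pathway genes were higher in C312S and 12 lower, against 41.3% and 37.9% of all genes, with all 5 chaperones of 20S assembly higher and NFE2L1 lower (-0.65 ± 0.05, adjusted p = 5.47e-14). The C312S DMSO libraries stand apart in summed FPKM and spike-in level, and the spike-in scale gave 0 higher and 38 lower, the 5 chaperones included, and equal summed FPKM 10 and 21. Under THZ531 NFE2L1 did not pass the test (0.05, adjusted p = 0.462), and 9 pathway genes were higher and 2 lower, against 2176 and 1724 of 12816 genes, with 6 higher and 0 lower on the spike-in scale and 1 and 8 with equal summed FPKM.

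Of the tested members, 9 had a match to the antioxidant response element core in their promoter window and 22 had a window without a match. Their median log2 changes were 0.24 and 0.16 with THZ1 in WT, 0.23 and 0.53 with the 2 µM combination, and 0.34 and 0.82 in C312S against WT under DMSO. Both sets ranged from below 0 to above 0 in each of these, from -0.63 to 0.41 with a match and -0.49 to 0.91 without in the first. The tested members PSMA7, PSMB1, PSMB6, PSMB7 and PSMD4 had no window and are in neither set. A gene counted as having a match if any of its windows did, and PSMA4 and PSMC5 also had windows without.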

How the data were processed

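The authors deposited FPKM per gene for 42 libraries. Per the submitters' processing notes, the build was hg19 and the tools were Cufflinks 2.2.1, Cuffnorm and HISAT2 2.0.4; filters and normalization settings are not given in the sources used here. Per the labels' protocols a stranded kit was used on polyadenylated RNA. Each of the 42 columns was matched to its sample's description. Depth is unknown, so intervals cover the spread between libraries only. The 92 ERCC rows stayed out of the tests, and 23 of them, over 1 FPKM in all libraries, gave the spike-in level.

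A gene was kept where 3 or more libraries held 1 FPKM or more. The test was limma's (R 4.3.3, limma 3.58.1; tables read by data.table, version 1.17.8), on log2(FPKM + 1), a scale that understates changes of low genes: 14 group means over all 42 libraries, moderated with a trend, Benjamini-Hochberg adjusted over 12816 genes within each of 24 comparisons, called under 0.05. Intervals are 95%. The fit was tested on simulated data. Lengths and GC contents come from 1 GENCODE transcript per symbol (12555 tested genes, 98.0%, and all 36 members). Trends on both were removed with splines of 4 degrees of freedom.

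Values by library are given for PSMB5 to PSMB10, PSMD4, PSMD14 and, per WT treatment, up to 3 called rises and 3 falls of at least 5 FPKM; other comparisons name as many by change. Members, roles and gene lists were chosen with earlier results of these data known. Alternatives were a pseudocount of 0.1, no filter, a filter at 5 FPKM, 3 scalings, only the groups compared, a replicate block, each library left out and core subunits only; trend removal and the comparison of the lines under THZ531 were added after seeing the data. Within groups the lowest correlation between libraries was 0.97, and 0 pairs were identical. Plots were drawn with matplotlib 3.10.9 in Python 3.11.15.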

Additional observations from a re-analysis of the deposited data

Results flagged for a closer look

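The effect of a treatment differed between C312S and WT cells by an interaction test for many subunit genes, and for many of all genes tested. Of 36 tested members it was 27 for YKL 500 nM (73.7% of all genes), 29 for YKL 2 µM (71.8%) and 31 for THZ531 (68.0%). It was 14 for THZ1 (42.2%), 32 for the combination at 500 nM (74.5%) and 35 for that at 2 µM (78.7%). These comparisons all share the DMSO libraries of both lines. For adding YKL 2 µM to THZ531, without DMSO libraries, it was 22 (53.1%). The shares for YKL 500 nM and THZ1 are close to those of all genes.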

How the results depend on the processing

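The counts of called members, which ignore direction, stayed within 1.5 times, and the 20S minus 19S medians within their spread, except as follows. A count that stayed can hide a turn of direction. With spike-in scaling, calls went from mostly higher to lower in WT THZ1, the WT combination at 2 µM and C312S against WT under DMSO. They went from mostly lower to higher in the C312S treatments other than THZ1. Scaling to the spike-in RNAs gave 34 called members in WT YKL 500 nM, 11 called members in WT THZ531, 34 called members in WT YKL 2 µM against YKL 500 nM, 10 called members in C312S THZ1, 36 called members in THZ1 (line difference) and 13 called members in adding YKL 2 µM to THZ531 (line difference). Scaling to the spike-in RNAs put the 20S minus 19S median at -0.43 in C312S THZ531 and -0.46 in C312S combination 500 nM. Scaling to the spike-in RNAs reversed the direction of the following log2 changes of named members. Changes in WT YKL 500 nM were -0.46 for PSMC4, -0.48 for PSMB1, -0.50 for PSMD13, -0.080 for PSMB9 and -0.64 for PSMD14. Changes in WT THZ1 were -1.51 for PSMD2, -1.67 for PSMB7, -1.83 for PSMA6, -2.08 for PSMB6, -0.42 for PSMB8 and -2.27 for PSMD4. Changes in WT combination 500 nM were -0.23 for PSMB7 and -0.13 for PSMD14. Changes in WT combination 2 µM were -0.056 for PSMA6, -0.11 for PSMA5, -0.29 for PSMD13, -1.12 for PSMB6, -0.58 for PSMB7, -0.68 for PSMB9, -1.02 for PSMB10 and -0.46 for PSMD14. The change in WT YKL 2 µM against YKL 500 nM was 0.43 for PSMD11. Changes in WT adding YKL 2 µM to THZ531 were -0.32 for PSMA5, -0.41 for PSMA6 and -0.46 for PSMB1. Changes in C312S against WT under DMSO were -0.27 for PSMD10, -0.27 for PSMA5 and -0.30 for PSMA6. Changes in C312S YKL 500 nM were 0.080 for PSMD10, 0.11 for PSMA6 and 0.12 for PSMA5. Changes in C312S YKL 2 µM were 0.23 for PSMA3, 0.27 for PSMA5 and 0.28 for PSMD10. Changes in C312S THZ531 were 0.61 for PSMA5, 0.62 for PSMD10 and 0.69 for PSMA6. Changes in C312S combination 500 nM were 0.27 for PSMA5, 0.30 for PSMD10 and 0.37 for PSMA6. Changes in C312S combination 2 µM were 0.049 for PSMD10, 0.073 for PSMA3 and 0.12 for PSMC6. Changes in C312S adding YKL 2 µM to THZ531 were -0.42 for PSMB3, -0.44 for PSMB4 and -0.45 for PSMA2. Changes in YKL 500 nM (line difference) were 0.61 for PSMA5, 0.64 for PSMA6 and 0.83 for PSMD13. Changes in YKL 2 µM (line difference) were 0.27 for PSMA5, 0.37 for PSMD10 and 0.39 for PSMA6. Changes in THZ531 (line difference) were 0.34 for PSMA6, 0.40 for PSMA5 and 0.53 for PSMA2. Changes in THZ1 (line difference) were 1.60 for PSMB4, 1.82 for PSMC3 and 1.83 for PSMC4. Changes in combination 500 nM (line difference) were 0.24 for PSMA6, 0.23 for PSMA5 and 0.52 for PSMB1. Changes in combination 2 µM (line difference) were 0.24 for PSMA6, 0.22 for PSMA5 and 0.53 for PSMD10. Scaling to equal summed FPKM gave 29 called members in WT THZ531 and 13 called members in C312S against WT under THZ531. Scaling to equal summed FPKM reversed the direction of some log2 changes. Changes in WT YKL 500 nM were 0.0063 for PSMB5, 0.17 for PSMB7 and 0.20 for PSMD4. Changes in WT YKL 2 µM were 0.14 for PSMB7, 0.23 for PSMD4 and 0.29 for PSMD14. The change in WT THZ1 was -0.032 for PSMD4. The change in WT combination 500 nM was 0.044 for PSMD4. Core subunits alone put the 20S minus 19S median at -0.058 in WT YKL 2 µM, 0.55 in C312S against WT under DMSO, -0.47 in C312S YKL 500 nM and -0.39 in C312S YKL 2 µM. Removing the GC and length trends gave 2 called members in WT YKL 2 µM against YKL 500 nM. Removing the GC and length trends put the 20S minus 19S median at -0.080 in WT combination 500 nM, -0.015 in WT combination 2 µM, 0.035 in C312S against WT under DMSO, -0.065 in C312S YKL 500 nM, -0.089 in C312S YKL 2 µM, 0.010 in C312S THZ531, -0.0085 in C312S THZ1, -0.11 in C312S combination 500 nM and -0.079 in C312S combination 2 µM. Removing the GC and length trends reversed the direction of some log2 changes. The change in WT THZ531 was 0.14 for PSMB6. The change in WT combination 2 µM was -0.10 for PSMB6. The change in C312S against WT under DMSO was 0.078 for PSMD2. The change in C312S THZ531 was -0.013 for PSMD2. The change in YKL 500 nM (line difference) was -0.047 for PSMD2. The change in THZ531 (line difference) was -0.12 for PSMD2. The change in combination 500 nM (line difference) was -0.17 for PSMD2. The change in combination 2 µM (line difference) was -0.040 for PSMD2. Fitting only the groups compared gave 0 called members in WT YKL 2 µM against YKL 500 nM. The filter at 5 FPKM put the 20S minus 19S median at -0.40 in C312S THZ531. Leaving out 1 library gave 0.047 to 0.10 for the 20S minus 19S median in WT THZ1, 0 to 2 called members in WT YKL 2 µM against YKL 500 nM, -0.42 to -0.38 for the 20S minus 19S median in C312S YKL 500 nM and -0.38 to -0.28 for the 20S minus 19S median in C312S YKL 2 µM. It gave -0.41 to -0.34 for the 20S minus 19S median in C312S THZ531, -0.45 to -0.37 for the 20S minus 19S median in C312S combination 500 nM, -0.33 to -0.27 for the 20S minus 19S median in C312S combination 2 µM and 3 to 6 called members in C312S against WT under THZ531.

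The replicate block gave 20 called members for YKL 500 nM, 17 for YKL 2 µM and 25 for C312S THZ1, and the same count as without it in the other comparisons. Same-numbered libraries of different groups correlated in their deviations with -0.21 to 0.25 (median 0.017, 43 of 273 pairs over 0.1), and different-numbered libraries with -0.32 to 0.21 (median -0.0053, 50 of 546 pairs over 0.1). These values cannot decide whether libraries were paired, since paired libraries need not all be over 0.1. The labels name no shared batch, so the numbers were not taken to pair the libraries. For 20 of 42 libraries the closest library of another group had the same number, a hint from the data and not from the design. Changes of single named members kept direction and call in 2433 alternatives, lost the call in 107, gained it in 17 and turned in 80, of which 64 were with spike-in scaling; the cause was not tested. Depth is unknown, so genes near 0 FPKM cannot be read.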

Other observations

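Activators of the 20S particle, which are not members, changed unequally on the deposited scale. PSME1 and PSME2, the subunits of the interferon-inducible PA28 cap, were both higher in C312S than in WT under DMSO (log2 changes 0.91 and 0.88, adjusted p from limma = 7.32e-13 and 1.83e-12), while under THZ531 they were higher by 0.22 (adjusted p = 0.0196) and 0.15 (adjusted p = 0.128). In WT cells YKL 2 µM lowered PSME1 (-0.46, adjusted p = 1.79e-06) and left PSME2 uncalled (0.11, adjusted p = 0.169), and THZ1 raised PSME2 by 0.47 (adjusted p = 1.08e-06) and PSME1 by 0.19 (adjusted p = 0.0204). PAAF1, at 19.7, 19.9 and 17.8 FPKM with DMSO, rose with YKL 500 nM to 26.5, 26.2 and 25.4 FPKM (0.43, adjusted p = 4.47e-07; -0.20 on the spike-in scale, adjusted p = 0.113) and fell with THZ531 to 12.1, 12.4 and 11.1 FPKM (-0.65, adjusted p = 7.92e-10). On the spike-in scale PSME1 and PSME2 were lower in C312S under DMSO (-0.53 and -0.55) and with THZ1 in WT (-2.21 and -1.92). With equal summed FPKM YKL 2 µM raised PSME2 in WT (0.40, adjusted p = 3.56e-08) and lowered PSME1 (-0.17, adjusted p = 0.00614). On that scale THZ1 raised PSME2 (0.31, adjusted p = 5.03e-06) and left PSME1 uncalled (0.02, adjusted p = 0.733).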
